A study of Homo sapiens with 10 samples.

Results

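The small RNA libraries of BEAS-2B cells were examined here for their microRNAs (miRNAs), comparing cells carrying a TAF1C expression vector with cells carrying the empty vector. BEAS-2B is an immortalised human bronchial epithelial cell line, and TAF1C belongs to SL1, a protein complex with which RNA polymerase I finds the promoters of ribosomal RNA genes. Both groups were stable lines made in the same parent cells with a pCMV6 vector, grown in LHC9 medium with serum and kept under G418 selection. The vector group had 2 small RNA libraries and the TAF1C group had 3, and 5 long RNA libraries of the same 2 groups were used for the genes that host miRNA hairpins. The labels do not say whether the libraries of a group came from separate cultures or clones, so every p-value measures only the spread between these libraries. Members were the rows of the miRNA tables with a value above 0 in all 5 libraries, which were 338 of 612 rows. The remaining 274 rows were at 0 in at least 1 library and are described at the end, because those zeros cannot be read as absence.

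A miRNA is cut from a hairpin transcript by the nucleases Drosha and Dicer, and one or both arms of the hairpin (5p and 3p) are loaded onto an Argonaute protein. The loaded strand lowers the stability and translation of messenger RNAs that pair with its seed, bases 2 to 8 from the 5′ end, so miRNAs with the same seed can act on the same messages. Hairpins that lie close together on a chromosome are often cut from one primary transcript, and many lie within the introns of a host gene. In airway epithelium miR-200 family members and miR-31 are known as epithelial miRNAs, miR-21 and miR-146a as miRNAs of inflammation and growth, and miR-9 as a miRNA of the nervous system.

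The mature sequences of 9 miRNAs that the results turn on are shown first, since the seed sets which messages each can pair with. They are those described one by one below, among them 4 large falls, 4 large rises and miR-21-5p, the most abundant row. They are written 5′ to 3′ from RefSeq (GRCh38.p14), with the seed in capitals.
hsa-miR-9-5p: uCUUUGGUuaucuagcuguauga
hsa-miR-199a-5p: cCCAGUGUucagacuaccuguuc
hsa-miR-210-5p: aGCCCCUGcccaccgcacacug
hsa-miR-340-5p: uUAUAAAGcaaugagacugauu
hsa-miR-146a-5p: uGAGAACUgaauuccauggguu
hsa-miR-671-5p: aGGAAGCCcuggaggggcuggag
hsa-miR-7-5p: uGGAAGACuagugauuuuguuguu
hsa-miR-31-5p: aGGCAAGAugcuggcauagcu
hsa-miR-21-5p: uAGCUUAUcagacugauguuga
No seed is shared among these 9 sequences. MiR-9-5p has 3 hairpin genes, MIR9-1 on chr1, MIR9-2 on chr5 and MIR9-3 on chr15, which encode the same mature sequence and cannot be told apart in the tables. MiR-146a-5p lies at chr5:160485372-160485393 on the plus strand, miR-31-5p at chr9:21512158-21512178 on the minus strand and miR-21-5p at chr17:59841273-59841294 on the plus strand.

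The tables name most rows by a 5p arm, and the arm that gave the reads cannot be taken from the name alone. Of the 612 rows, 19 were named as 3p arms and 142 carried no arm, and all others were named as 5p arms. The 2 hairpins of miR-24 show why the names need care, because their 5p arms differ from each other and their 3p arm is the same.
hsa-miR-24-1-5p: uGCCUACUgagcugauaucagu
hsa-miR-24-2-5p: uGCCUACUgagcugaaacacag
hsa-miR-24-3p: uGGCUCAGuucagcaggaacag
Among 6 pairs of tested rows named for different 5p arms with a shared 3p arm, some carried nearly the same value and some did not. The ratio of miR-92a-1-5p to miR-92a-2-5p was 1.04 to 1.06 over the 5 libraries, and these 5p sequences have different seeds.
hsa-miR-92a-1-5p: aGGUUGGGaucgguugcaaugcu
hsa-miR-92a-2-5p: gGGUGGGGauuuguugcauuac
hsa-miR-92a-3p: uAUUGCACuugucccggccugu
The ratio of miR-103a-2-5p to miR-103a-1-5p was 1.002 to 1.003, that of miR-29b-1-5p to miR-29b-2-5p was 1.10 to 1.37, and that of the low rows miR-509-3-5p and miR-509-5p was 0.437 to 2.29. For miR-19b the ratio was at most 1.01, for miR-365a-5p to miR-365b-5p it was 1.06 to 1.11, and rows miR-1-5p and miR-1-3p were both at 383 in TAF1C-labelled library 1. Rows are therefore called by the names in the tables, a change is read as that of the hairpin's row, and the arm behind each value was not tested.

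Library quality and the label itself were checked before the groups were compared. The TAF1C transcript was at 63.9 and 77.1 CPM (counts scaled to the size of the library) in the vector long RNA libraries and at 63.5, 58.5 and 66.5 CPM in the TAF1C-labelled ones. It was not higher in the latter (log2 fold change -0.17, edgeR quasi-likelihood adjusted p = 0.349), so the group is called TAF1C-labelled throughout and each direction below is that of the labels. The deposited miRNA values summed to between 17820818 and 22035505 per library, and the low values checked in each library (193 to 201 of them, up to 3000 steps) were multiples of 1 step of 0.659 to 1.27. Tested rows held 90.7% to 97.2% of each library's sum. The 2 vector libraries were close to each other, with an SD of the log2 difference of 0.12 over rows with a mean of at least 1000, and so were TAF1C-labelled libraries 2 and 3, at 0.11. TAF1C-labelled library 1 stood apart from these, at 0.50 and 0.44. In that library miR-143-5p, a smooth muscle and fibroblast miRNA, was at 8382, against 186 and 306 in the other two and 283 and 308 in the vector libraries. Its cluster neighbour miR-145-5p was at 170 there and between 18.4 and 33.6 elsewhere, and neither row passed the test.

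Nearly as many miRNAs were higher as lower in the TAF1C-labelled libraries. With limma on log2(value + 1) and a Benjamini-Hochberg adjusted p below 0.05, 71 of 338 rows rose (21%) and 65 fell (19.2%), and those called in either direction were 40.2%. The groups did not overlap in 63.3% of the tested rows. The median log2 fold change over all tested rows was 0.02. Scaling decides this balance. In another fit each value was divided by its library's sum over the tested rows, called library totals below. With library totals 39 rows rose and 135 fell. The share of calls that were rises went from 52.2% to 22.4%, and the median moved to -0.23. Fold changes are on the log2(value + 1) scale, which understates the change of low rows. At least 2-fold changes were fewer, with 16 rises and 21 falls, and only 10 of these 37 rows had a mean over the 5 libraries of at least 1000. The plot of change against level shows this spread, with miR-9-5p far below every other row.

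**Figure D1:**
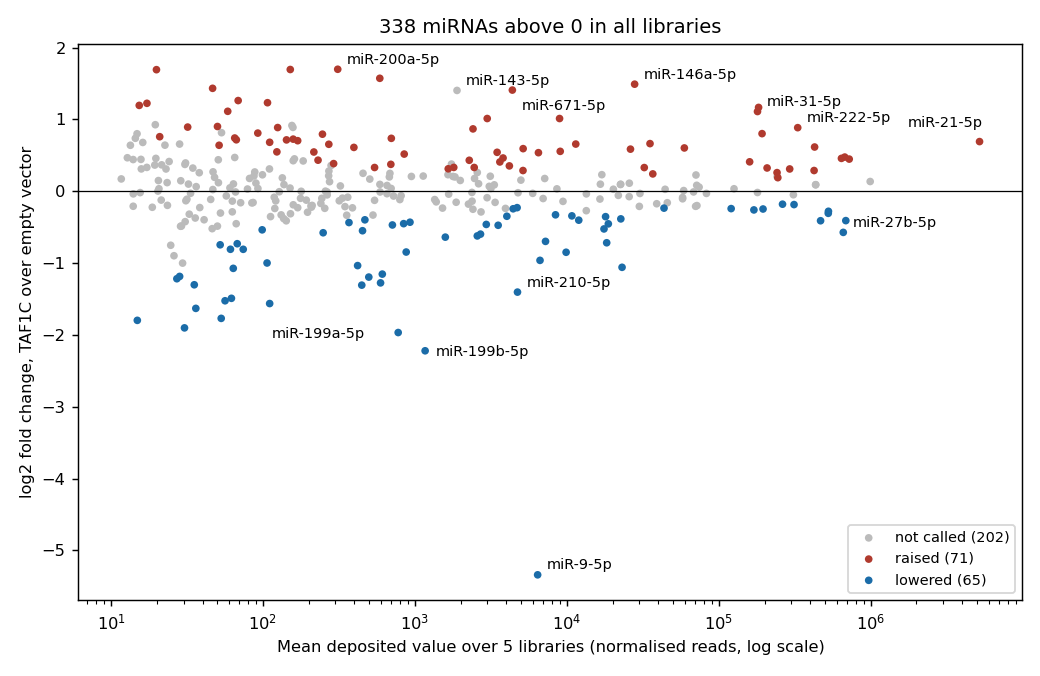
Log2 fold change of the 338 tested miRNAs (vertical axis, TAF1C-labelled over empty vector) against their mean deposited value over the 5 libraries (horizontal axis, normalised reads, log scale). Red points rose, blue points fell and grey points were not called; miR-9-5p lies at -5.34, and miR-143-5p at 1.40 is grey because 1 library carries it.

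The largest change was the loss of miR-9-5p, a miRNA best known from neural progenitors and neurons. Its values were 14872 and 16092 in the vector libraries and 342, 454 and 357 in the TAF1C-labelled ones. Every TAF1C-labelled library was far under both vector libraries, and the means differed 40.3-fold. The log2 fold change was -5.34 ± 0.13 (SE), with a limma adjusted p of 3.77e-09. In bulk RNA, fewer cells with a miRNA and less of it per cell cannot be told apart, here or below. Other neural miRNAs went both ways. Of the 7 tested rows of a neural list, 2 fell (miR-9-5p and miR-138-5p), 2 rose (miR-124-5p and miR-129-5p) and 3 were not called, with a median of 0.13. MiR-124-5p, a neuron-restricted miRNA, was at 73.5 and 87.7 in the vector libraries and at 105.99, 154.99 and 202.7 in the TAF1C-labelled ones, and its call was lost without vector library 1 or without TAF1C-labelled library 2.

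MiR-199b-5p and miR-199a-5p, which are known from mesenchymal cells, came next among the falls. MiR-199b-5p was at 2177 and 2228 in the vector libraries and at 579, 399 and 455 in the TAF1C-labelled ones, a log2 fold change of -2.22 ± 0.15 (limma adjusted p = 6.62e-06). MiR-199a-5p was at 1366 and 1419 against 489, 293 and 314, a log2 fold change of -1.97 ± 0.20 (limma adjusted p = 5.46e-05). In both rows the groups were apart, and TAF1C-labelled library 1 was the highest of its group. Whether the miR-199 rows are independent of each other was not tested. MiR-210-5p, the hairpin row of the miRNA induced by hypoxia through HIF1A, was at 7773 and 7293 in the vector libraries. It was at 3324, 2483 and 2790 in the TAF1C-labelled ones, a log2 fold change of -1.40 ± 0.12 (limma adjusted p = 2.45e-05). MiR-340-5p, from an intron of RNF130, went from 32515 and 34572 to 15928, 15415 and 16990, a log2 fold change of -1.06 ± 0.07 (limma adjusted p = 6.62e-06). Among called rows without overlap whose higher group averaged at least 1000, the other 7 of the 12 largest falls lay between -0.96 and -0.62. They were miR-589-5p, miR-345-5p, miR-196b-5p (from a HOX gene cluster), miR-98-5p, miR-328-5p, miR-675-5p and miR-582-5p.

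MiR-146a-5p rose most among rows whose higher group averaged at least 1000. It is induced by NF-kB and represses the signalling adaptors IRAK1 and TRAF6. Its values were 12921 and 13871 in the vector libraries and 37294, 38384 and 37192 in the TAF1C-labelled ones, with the 3 libraries within a narrow band. The log2 fold change was 1.49 ± 0.07 (limma adjusted p = 5.67e-07). The row miR-146b-5p, whose 5p arm has the same seed, was at 15928 and 15926 against 15909, 18391 and 16948, a log2 fold change of 0.10 that did not pass the test (limma adjusted p = 0.343). MiR-155-5p, another miRNA of NF-kB signalling, was at 136247 and 130257 against 174253, 186960 and 170196, with a log2 fold change of 0.41 ± 0.07 (limma adjusted p = 0.00103). After quantile normalization the hsa-miR-155-5p difference was -0.04, and after division by library totals it was 0.16, and neither was called.

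MiR-671-5p and miR-7-5p rose together. In background, the circular RNA CDR1as carries many sites for miR-7 and is cleaved by miR-671. MiR-671-5p went from 2271 and 2123 to 5581, 6044 and 5876, a log2 fold change of 1.41 ± 0.08 (limma adjusted p = 2.84e-06). MiR-7-5p went from 102242 and 106659 to 216258, 250449 and 238097, a log2 fold change of 1.17 ± 0.07 (limma adjusted p = 6.51e-06). For both, all 3 TAF1C-labelled libraries were at least 2-fold above both vector libraries. The mature miR-7-5p matched at least the hairpin genes MIR7-1 on chr9 and MIR7-3 on chr19, so the locus behind the rise cannot be named.

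MiR-31-5p and miR-21-5p were among the most abundant rows that rose. MiR-31-5p, an epithelial miRNA that is often lost in metastatic carcinoma, was at 113212 and 98934 in the vector libraries and at 249830, 216810 and 220027 in the TAF1C-labelled ones. The groups were apart, with a log2 fold change of 1.11 ± 0.09 (limma adjusted p = 1.58e-05). MiR-21-5p, a widely raised miRNA of tumours, held the largest share of every library: 22.2% and 23.4% of the tested sum in the vector libraries and 30.1%, 31.2% and 31.5% in the TAF1C-labelled ones. Its log2 fold change was 0.69 ± 0.06 (limma adjusted p = 3.40e-05). A row of this size moves the sums it is divided by, and after division by library totals the hsa-miR-21-5p log2 fold change was 0.44 and still called (limma adjusted p = 0.000509). The remaining large rises were in miR-99a-5p (1.01), miR-222-5p (0.89), miR-193a-5p (0.87), miR-378a-5p (0.80), miR-455-5p (0.66) and miR-378c (0.66). The plot of the largest changes shows each library for these rows.

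**Figure D2:**
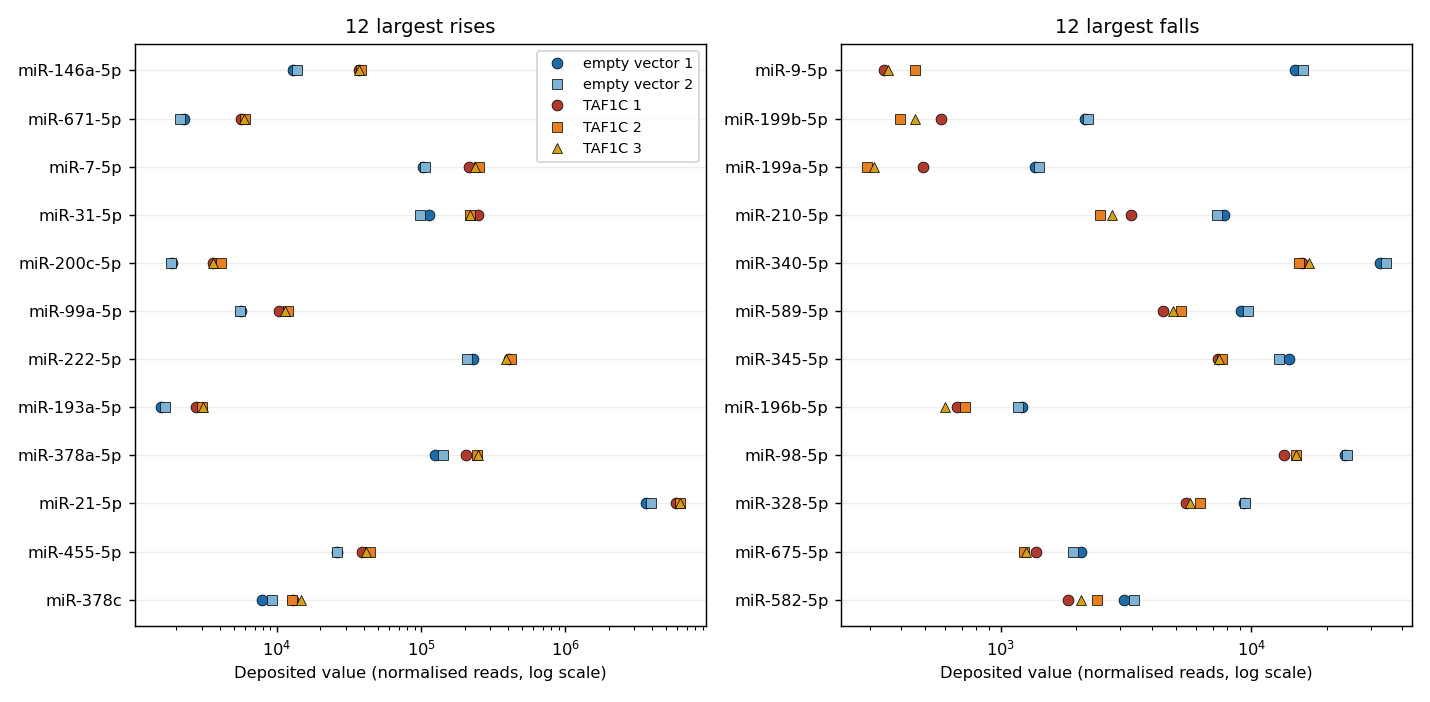
Deposited values (horizontal axis, normalised reads, log scale) of the 12 largest rises and 12 largest falls, with 1 point per library. Rows were chosen among called miRNAs whose groups do not overlap and whose higher group averaged at least 1000. By this choice the 2 empty vector libraries (blue) lie apart from the 3 TAF1C-labelled ones (red, orange, yellow) in every row. The widest gap is at miR-9-5p, 14872 and 16092 against 342 to 454.

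The miR-200 family rose as a group. Its members hold ZEB1 and ZEB2, repressors of E-cadherin, in check. All 4 tested members (miR-200c-5p, miR-200a-5p, miR-429 and miR-141-5p) rose, with a median log2 fold change of 1.06 beside 0.02 over all tested rows. MiR-200c-5p, the abundant one, was at 1858 and 1852 in the vector libraries and at 3589, 4067 and 3592 in the TAF1C-labelled ones, a log2 fold change of 1.01 ± 0.09 (limma adjusted p = 2.77e-05). MiR-200a-5p was at 123.9 and 122.7 against 693, 312 and 301, so TAF1C-labelled library 1 was far above the other two. Without that library the hsa-miR-200a-5p log2 fold change was 1.31. MiR-429 and miR-141-5p were low, with every library under 80. The fifth member, miR-200b-5p, was listed at 0 in 4 libraries.

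Lists of miRNAs of cell types gave the following beside these changes. Over all tested rows 21% rose and 19.2% fell, and most lists hold few rows. All 5 tested rows of an epithelial list (miR-31 and the 4 miR-200 members) rose, and the summed value of the list was 115262 and 100981 against 254244, 221336 and 224746, nearly all of it miR-31-5p. These sums run over every row of a list and take listed zeros as 0. The epithelial list also held miR-200b-5p and miR-205-5p, which had listed zeros and were not tested, and miR-203, which had no row. MiR-205-5p was at 7.25 in vector library 2 and listed at 0 in every other library. Of the 5 tested rows of a mesenchymal list, 3 fell (miR-199a-5p, miR-199b-5p and miR-10a-5p) and miR-143-5p and miR-145-5p were not called. The miR-199 rows may not be independent, as said above. MiR-10a-5p lost its call without vector library 2, and without TAF1C-labelled library 1 there were 4 falls and no row above 0. The summed mesenchymal value was 8276 and 8805 against 13327, 4733 and 4670, and the high library is the one with 8382 of miR-143-5p. A muscle list had 3 tested rows and no call, with sums of 321 and 335 against 906, 343 and 349. Of the 4 tested rows of a blood cell list 2 rose, miR-155-5p and miR-142-5p, and the latter was at 20.0 and 25.1 against 54.0, 74.2 and 59.9. MiR-122-5p, the defining miRNA of hepatocytes, was between 15.2 and 33.2. A list for retina and sensory cells had 3 falls (miR-183-5p, miR-96-5p and miR-184) and 1 rise (miR-204-5p, at 14.4 and 14.5 against 25.1, 27.7 and 22.9) among 4 tested rows. The call of miR-204-5p was lost whichever library was left out. The part of other cells in any of these results was not tested.

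Other families and clusters were mixed or moved by small amounts, and their counts stand beside 21% raised and 19.2% lowered over all tested rows. The let-7 family, which restrains RAS, HMGA2 and MYC messages, shares 1 seed, and 4 of its 7 tested rows fell and none rose, with a median of -0.28. Without vector library 2 only 2 fell, and with library totals 5 fell and all 7 were under 0. The 4 that fell are shown with let-7a, which did not.
hsa-miR-98-5p: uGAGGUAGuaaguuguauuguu
hsa-let-7i-5p: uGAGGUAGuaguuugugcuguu
hsa-let-7f-5p: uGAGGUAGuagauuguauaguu
hsa-let-7g-5p: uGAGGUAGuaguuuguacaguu
hsa-let-7a-5p: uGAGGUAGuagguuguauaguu
MiR-98-5p fell most, from 23718 and 24067 to 13543, 15052 and 15068, a log2 fold change of -0.72 ± 0.07 (limma adjusted p = 6.29e-05). Let-7i-5p was at 530220 and 566267 against 366973, 445306 and 428987 (log2 fold change -0.41), and let-7f-5p (-0.31) and let-7g-5p (-0.28) fell less. Let-7a-5p, the most abundant member, was at 911571 and 958811 against 935812, 1071230 and 1081220, and its log2 fold change of 0.14 was not called (limma adjusted p = 0.184). The hairpin of miR-98 lies within 10 kb of 1 of the let-7f hairpins on chrX, and both rows fell.

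The miR-17-92 cluster on chr13, a MYC target known for promoting proliferation, had calls in the other direction. With its second copies on chrX it had 7 tested rows, of which 4 rose and none fell, with a median of 0.29. On chr13 alone it had 5 tested rows, of which 3 rose and none fell. The rows that rose were miR-92a-1-5p (0.48), miR-92a-2-5p (0.46), miR-20a-5p (0.45) and miR-17-5p (0.29). MiR-20a-5p was at 615501 and 567955 in the vector libraries and at 884988, 750642 and 789540 in the TAF1C-labelled ones. The 2 miR-92a rows share the 3p arm and are not independent. The same holds for the 2 miR-19b rows, whose ratio was at most 1.01, so the 7 rows are not separate readings. With library totals only 2 of the 7 rose and the median was 0.04, so the direction of the cluster as a whole rests on the scaling. The seed of miR-17 is shared with rows from other clusters, shown here because the rows differ in their calls.
hsa-miR-17-5p: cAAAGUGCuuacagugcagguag
hsa-miR-20a-5p: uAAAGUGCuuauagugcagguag
hsa-miR-106a-5p: aAAAGUGCuuacagugcagguag
hsa-miR-93-5p: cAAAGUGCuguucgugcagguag
hsa-miR-106b-5p: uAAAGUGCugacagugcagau
Of these 5 rows with the seed AAAGUGC, miR-17-5p, miR-20a-5p and miR-106a-5p (0.41) rose, and miR-106a-5p was not called with library totals (0.16) or without vector library 2 (0.25). MiR-93-5p (-0.02) and miR-106b-5p (-0.01), which come from a cluster in MCM7 on chr7, were not called, at limma adjusted p of 0.878 and 0.923. Whether the 2 sets differ was not tested.

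The rows miR-221-5p and miR-222-5p both rose. Their hairpins are neighbours on chrX and give miRNAs known to target the cell cycle inhibitor CDKN1B. The 5p and 3p arms of miR-222 have different seeds, and the arm behind these values was not tested. MiR-222-5p was at 230759 and 208019 against 407388, 418788 and 388469, a log2 fold change of 0.89 ± 0.07 (limma adjusted p = 1.58e-05). MiR-221-5p was at 329139 and 318175 against 513890, 496539 and 477970, a log2 fold change of 0.62 ± 0.06 (limma adjusted p = 5.46e-05). In the miR-29 family, known for repressing collagens, 3 of 4 rows rose and miR-29c-5p fell (-0.43). Its members on chr7, miR-29a-5p (0.32) and miR-29b-1-5p (0.54), both rose, while the pair on chr1 split, with miR-29b-2-5p at 0.29. The 2 miR-29b rows share the 3p arm, at a ratio of 1.10 to 1.37, and may not be independent. Of the miR-29 rises only miR-29b-1-5p was called with library totals, and without vector library 1 no other rise or fall of the family was. MiR-26a-5p (-0.41) and miR-26b-5p (-0.24) both fell, and so did miR-183-5p (-0.46) and miR-96-5p (-0.45). MiR-26b-5p was not called without either vector library, nor miR-96-5p without vector library 1.

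Several other groups had few calls, beside 21% raised and 19.2% lowered over all tested rows. In the miR-15/16 family, which holds cyclin messages in check, 3 of 7 rows fell (miR-503-5p at -0.60, miR-15b-5p at -0.38 and miR-424-5p at -0.23), and miR-16-5p, its most abundant row, was at -0.03 and not called. With library totals 6 of the 7 fell, and without either vector library, or without TAF1C-labelled library 2 or 3, 2 fell and miR-424-5p was not called. In the miR-30 family 1 row rose (miR-30d-5p, 0.26) and 2 fell (miR-30c-5p, -0.26, and miR-30a-5p, -0.19) among 5, and with library totals no miR-30 row rose and 3 fell. Leaving out TAF1C-labelled library 2 left no call in the miR-30 family. Of 4 miR-181 rows 1 rose, miR-181d-5p at 0.43, a call lost with library totals and without vector library 2. In the miR-148 and miR-152 family miR-148a-5p rose (0.59) while miR-152-5p (-0.52) and miR-148b-5p (-0.23) fell, and the rise of miR-148a-5p was not called with library totals. MiR-148b-5p lost its call without either vector library and without TAF1C-labelled library 3. None of the 4 tested rows of the MIR532 to MIR502 cluster on chrX was called. In the imprinted miRNA cluster at 14q32, 2 of 22 rows were above 0 in all libraries and both fell: miR-379-5p from 67.1 and 54.7 to 12.5, 22.1 and 24.2, and miR-381-5p from 104 and 98.9 to 29.9, 36.5 and 40.8. Of 6 rows linked to p53, 1 rose, miR-192-5p at 0.24, and after division by library totals hsa-miR-192-5p was at -0.01 and not called. Its call was also lost without vector library 1 and without TAF1C-labelled library 2 or 3.

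**Figure D3:**
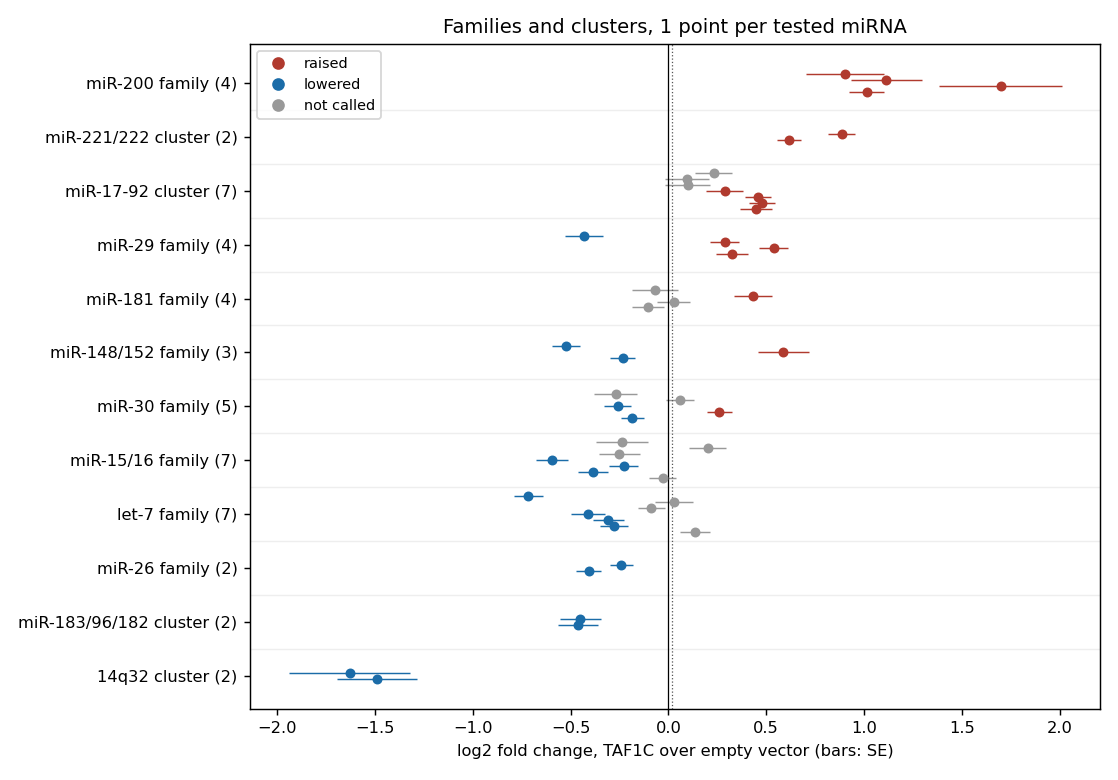
Log2 fold change with its SE (horizontal axis, TAF1C-labelled over empty vector) for each tested member of 12 families and clusters, with the number of tested members in brackets; the dotted line is the median of all tested rows, 0.02. The miR-200 members all lie right of 0, the let-7 members that were called lie left of it, and the miR-29 family and the miR-148 and miR-152 family have calls on both sides.

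Some lower rows changed as strongly as the abundant ones and are given as values chosen after they were seen. MiR-218-5p rose from 270 and 266 to 738, 847 and 816 (log2 fold change 1.57), and miR-135b-5p from 75.1 and 54.1 to 198, 201 and 228 (1.69). MiR-138-5p fell from 966 and 868 to 405, 393 and 339 (-1.28). MiR-449c-5p, of a family known from ciliated airway cells, fell from 940 and 882 to 386, 409 and 433 (-1.15). Among the 104 rows with a mean under 100, 13 rose and 15 fell, beside 21% raised and 19.2% lowered over all tested rows.

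Host genes of the hairpins were read from the long RNA libraries as counts per gene, and primary miRNA transcripts were not measured separately. Hosts came from a list of host genes and not from a search of all genes, so hairpins within other genes are not covered. RefSeq placed a hairpin of 55 tested miRNA rows within 44 tested genes of that list. Of these genes 9 rose, 9 fell and 26 were not called. Over all 18401 long RNA genes tested with edgeR's quasi-likelihood test, 15.8% rose and 22.6% fell, so the hosts' shares are near the background. Host and miRNA were both called in 11 of the 55 rows, in the same direction in 7 (4 raised, 3 lowered) and in opposite directions in 4. In 12 rows the host was called and the miRNA was not, and in 19 the miRNA was called and the host was not. MIR31HG, which carries miR-31, was at 3.21 and 2.43 CPM in the vector libraries and at 15.7, 17.002 and 17.7 CPM in the TAF1C-labelled ones, a log2 fold change of 2.57 (edgeR adjusted p = 0.00113). VMP1, whose annotated span holds miR-21, was at 117 and 155.4 CPM against 290, 330 and 290 CPM, a log2 fold change of 1.15 (edgeR adjusted p = 0.00500). CHPF2 (0.69, miR-671) and FUT8 (0.80, miR-625) also rose with their miRNAs, and CHPF2 was called in only 2 of 5 fits with 1 library left out.

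RNF130, the host of miR-340, fell from 76.9 and 52.96 CPM to 27.6, 22.3 and 20.9 CPM, a log2 fold change of -1.46 (edgeR adjusted p = 0.00466). MEST, an imprinted gene with miR-335 in an intron, fell from 20.2 and 16.96 CPM to 1.10, 0.729 and 1.04 CPM, a log2 fold change of -4.27 (edgeR adjusted p = 0.000484), and miR-335-5p fell by 1.07 on the log2 scale. LINC00461, which holds MIR9-2, was at 13.4 and 1.02 CPM in the vector libraries and at 0.198, 0.117 and 0.0307 CPM in the TAF1C-labelled ones. All 3 were lower than both vector libraries, but these were far apart, and the call (edgeR adjusted p = 0.0149) was lost in each of the 3 fits with 1 library left out in which the gene passed the filter. MIR210HG was at 13.9 and 3.95 CPM against 2.54, 2.74 and 4.20 CPM and was not called (edgeR adjusted p = 0.082).

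The 4 opposite cases were H19, TLE3, CTDSP1 and C9orf3. H19, the imprinted noncoding RNA from which miR-675 is cut, rose from 151.6 and 153 CPM to 416, 346 and 384 CPM (log2 fold change 1.33, edgeR adjusted p = 0.00171). MiR-675-5p fell from 2085 and 1951 to 1389, 1234 and 1267 (log2 fold change -0.64, limma adjusted p = 0.000543), and row miR-675-3p was at 729 and 743 in the vector libraries and listed at 0 in all 3 TAF1C-labelled ones. TLE3 fell by 1.78 on the log2 scale while miR-629-5p rose by 0.59. CTDSP1 (0.64) and C9orf3 (0.34) rose while miR-26b-5p and miR-27b-5p fell, but CTDSP1 and C9orf3 were each called in only 2 of 5 fits with 1 library left out. The hosts MIR31HG, VMP1, FUT8, H19, MEST, RNF130, EVL and TLE3 were called in all 5 fits with 1 library left out.

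**Figure D4:**
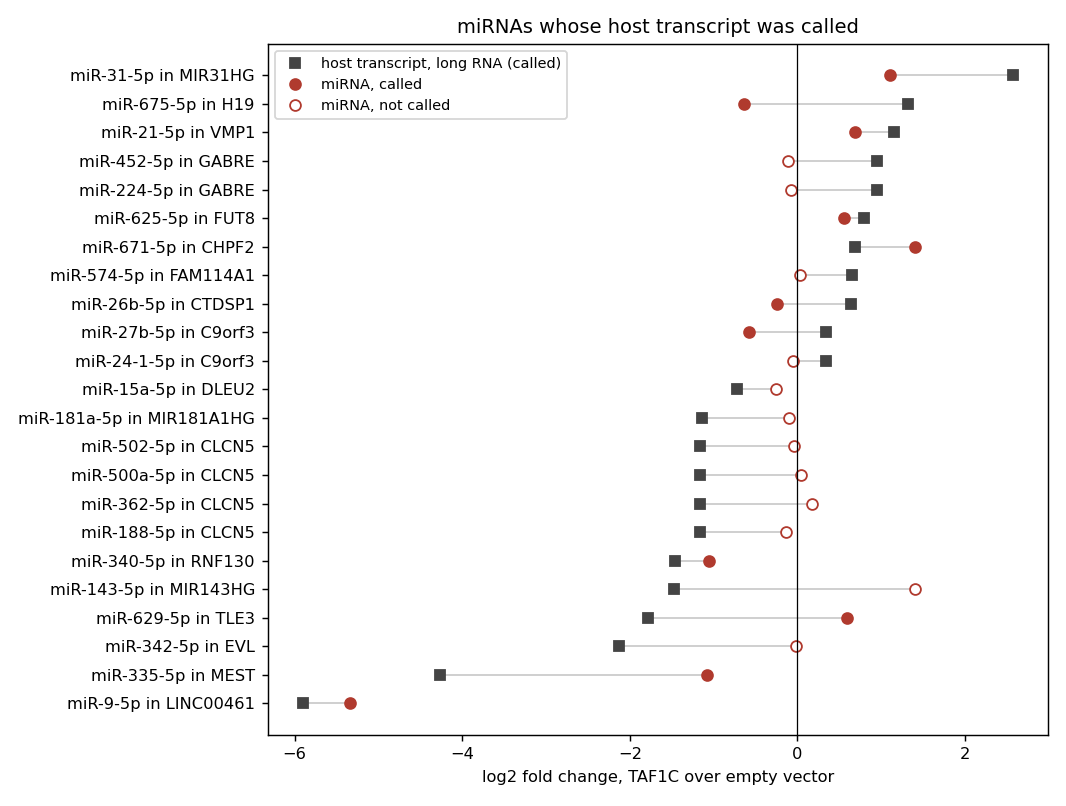
Log2 fold change (horizontal axis, TAF1C-labelled over empty vector) of each miRNA row (circles, filled where called) and of its host transcript in the long RNA libraries (squares), for hosts that were called. Squares and filled circles lie on the same side of 0 for miR-31 and MIR31HG and for miR-335 and MEST, and on opposite sides for miR-675 and H19.

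The 274 rows at 0 in some library include abundant miRNAs. Of these rows, 18 had a mean of at least 1000 over the libraries where they were above 0. MiR-100-5p was at 1176260 and 1220530 in the vector libraries, at 1447580 and 1619850 in TAF1C-labelled libraries 1 and 2 and listed at 0 in library 3. Such a 0 stands beside 4 of the highest values in the tables, so a listed 0 is not read as a low level. MiR-24-2-5p was listed at 0 in both vector libraries and was at 293564, 317114 and 318511 in the others, while miR-24-1-5p, with the same 3p arm, was between 289882 and 320603 in all 5. Row miR-23a-5p was at 0 in vector library 1 and TAF1C-labelled library 2, and miR-23b-5p in vector library 2 and TAF1C-labelled library 1. MiR-484 was at 49776 and 65140 in 2 libraries and at 0 in 3, and miR-532-5p was between 22774 and 25870 in 4 libraries and at 0 in vector library 2.

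Among rows at 0, 24 were at 0 in all 3 TAF1C-labelled libraries and above 0 in both vector libraries, and 5 had the reverse pattern. The most abundant of the 24 was miR-149-5p, at 10448 and 10629 in the vector libraries. The next were miR-675-3p, given above, and miR-23c, at 90.3 and 72.5. The vector libraries had 460 and 493 rows above 0 and the TAF1C-labelled ones 456, 440 and 409. Reads were estimated roughly as the sum over rows divided by the step, with listed zeros taken as 0. The estimates were 22294686 and 27538545 against 22217596, 19904339 and 16077733. The part of depth in the listed zeros was not tested. MiR-577 had a low value in place of a 0 in 1 library: it was at 2763 and 2429 in the vector libraries, at 11.1 in TAF1C-labelled library 2 and listed at 0 in the other two. MiR-618 was alike, at 668 and 624 against 13.3 in that library and 0 in the other two. No fold change is given for these rows. The plot of rows listed at 0 shows that zeros fall in both groups and in every library.

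**Figure D5:**
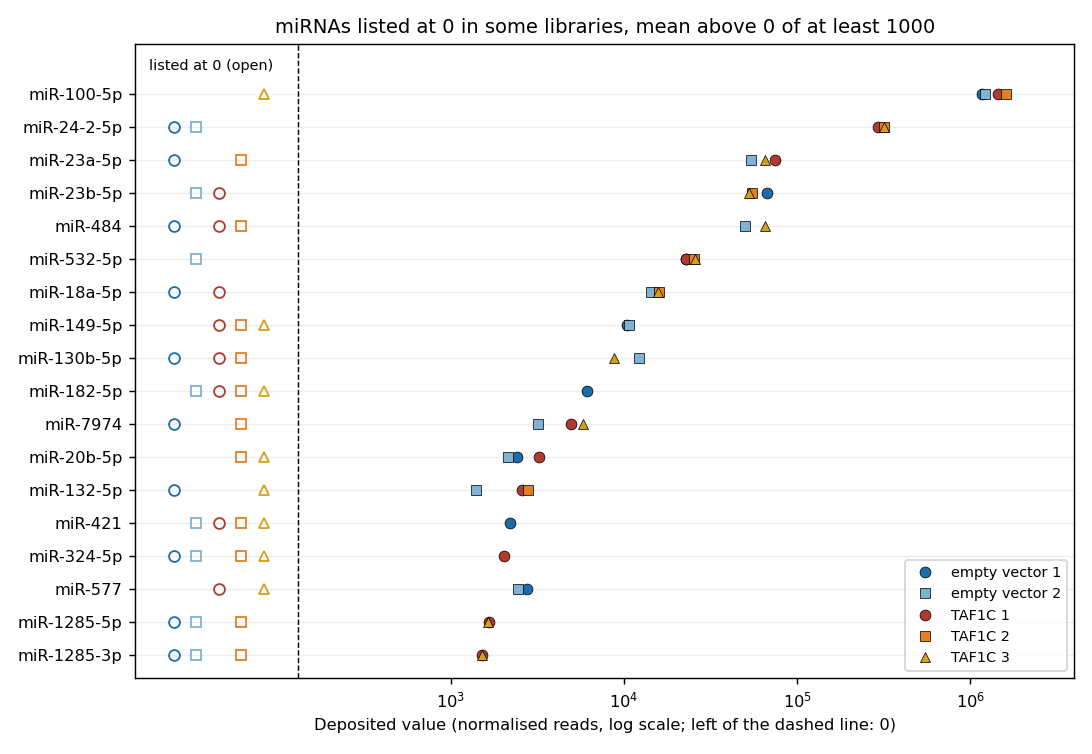
Deposited values (horizontal axis, normalised reads, log scale) of the 18 miRNAs listed at 0 in at least 1 library with a mean of at least 1000 over the others; open symbols left of the dashed line mark libraries listed at 0. MiR-100-5p, at 1176260 to 1619850 in 4 libraries, is at 0 in TAF1C-labelled library 3.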

How the data were processed

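Small RNA libraries (NEBNext Multiplex small RNA kit) and ribo-depleted long RNA libraries were made from mirVana RNA, per the labels' protocols. The submitters' processing notes name hg19, DESeq2, Cufflinks 2.2.1, HISAT2, Bowtie2 2.2.4 and Trimmomatic 0.36, without saying which made the miRNA tables. The miRNA values deposited by the authors are a normalised signal: in each library the low values (193 to 201 of them, up to 3000 steps) are whole multiples (within 0.05) of 1 step, the lowest being 3 or 4 steps. Sums divided by the step give 16077733 to 27538545 per library, a rough estimate of reads. It takes listed zeros as 0, and any reads given to more than 1 row are counted more than once. The long RNA tables deposited by the authors hold counts per gene, 22809601 to 37533366 per library.

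Rows above 0 in all 5 libraries were tested with limma 3.58.1 (trend, two-sided) on log2(value + 1), adjusted over 338 rows by Benjamini-Hochberg at 0.05. Long RNA genes reaching 1 CPM in 2 or more libraries were tested with edgeR 4.0.16 (quasi-likelihood, TMM). Host genes came from a list and were used where RefSeq placed the hairpin within the gene on its strand. Both were tested on simulated data. Arms, seeds and hairpin positions came from RefSeq (GRCh38.p14), which matched 546 of 612 names; clusters join hairpins within 10 kb on a strand. Named were the 3 markers and the 12 largest rises and falls. The rises and falls had to be called, without overlap of the groups and with a higher group averaging at least 1000. Also named were the 10 most abundant rows and up to 4 members per family or cluster with 3 tested rows. The 6 highest rows at 0 and the top row of each cell type list were added. Other rows (among them miR-335, miR-138, miR-449c, miR-142, miR-625, miR-629, miR-149, miR-577, miR-618 and miR-675-3p) were picked once their values had been seen. The members and lists were chosen with earlier results of these data known. No piRNA table was used.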

Additional observations from a re-analysis of the deposited data

How the results depend on the processing

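The counts of calls were refitted with other pseudocounts, filters, scalings, limma settings and with each library left out. Division by library totals changed them most, to 39 miRNAs raised and 135 lowered in place of 71 and 65; TMM gave 69 and 68, and including rows with zeros gave 55 and 70. With 1 library left out, 50 to 89 were raised and 42 to 88 lowered; the lowest count of falls, 42, came without vector library 1, and the highest counts came without TAF1C-labelled library 1. Library numbers were given to both groups, but libraries with the same number did not deviate together (r of 0.04 and -0.001), and a replicate block over libraries 1 and 2 gave 64 raised and 59 lowered. For host transcripts 3 were raised and 6 lowered with the block in place of 9 and 9, and leaving out 1 library gave 4 to 19 raised and 4 to 16 lowered: without any 1 TAF1C-labelled library 4 and 4, without vector library 1 14 and 16, without vector library 2 19 and 11. In leave-out fits the vector arm with 1 library is assumed to vary like the other group.

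Of 60 named miRNAs called, 35 kept direction and call in every setting and 44 with any library left out. Among named rows called in either fit, signs turned for hsa-miR-192-5p (-0.0097 with library totals), hsa-miR-155-5p (-0.038 after quantile normalization) and hsa-miR-500a-5p, not called in the main test (-0.21 with library totals); the cause was not tested. Uncalled rows with small rises also turned with library totals, such as hsa-let-7a-5p (-0.12, not called). Quantile normalization gives hsa-miR-21-5p, the first rank in every library, a difference of 0 by construction. Count tests on the miRNA tables (edgeR, DESeq2) were not run, because the values are normalised and not counts.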
